A study of Homo sapiens with 8 samples.

Results

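ABC1 and HCC4006 are established human lung adenocarcinoma lines, and the comparison described here is that of the 2 lines without an electrophile. The labels give each line as free of mutations in *KEAP1* and in *NRF2* (gene symbol *NFE2L2*), which is why the study calls both lines NRF2-normal, and HCC4006 is widely known to carry an activating deletion in *EGFR*. The cells were cultured in low-glucose DMEM with fetal bovine serum, and the untreated cells received the vehicle DMSO for 16 h. The members were the 2 vehicle libraries of ABC1 and the 2 vehicle libraries of HCC4006, which are 4 of the 8 libraries analysed. The remaining libraries, 2 of each line, received diethylmaleate (DEM), an electrophile that inhibits KEAP1, and are used to repeat the comparison at the end and to test whether the line difference is the same with DEM. Genes were kept when their mean over the 4 vehicle libraries was at least 1 FPKM, in fragments scaled to transcript length and library depth, which left 13747 of 57815 gene identifiers. Each group is a single cell line, so a difference between the groups describes these lines and no wider class of tumours. The methods call the libraries of a group biological duplicates, and the labels give no more on how they were separated, so that each p-value measures the spread between 2 libraries of a line.

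The distal lung is patterned by a small set of transcription factors, of which NKX2-1 drives surfactant and other alveolar genes, whereas SOX2 is known for the airway epithelium. Epithelial cells are held together by E-cadherin, claudins and desmosomes, and carcinoma cells can take on mesenchymal genes such as vimentin without losing these. Receptor tyrosine kinases such as EGFR and MET pass growth signals to the ERK kinases, which induce both transcription factors and their own inhibitors. NRF2 is a transcription factor that KEAP1 sends to degradation until electrophiles inactivate KEAP1, and its targets make glutathione, reduce quinones and supply NADPH.

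Most genes differed between the lines. Differences are given as log2(FPKM + 1) of HCC4006 minus that of ABC1, so values above 0 are higher in HCC4006, and calls were made where the adjusted p was under 0.05 in limma after Benjamini-Hochberg correction. Of the 13747 genes, 9305 (67.7%) were called, 5121 (37.3%) of them higher in HCC4006 and 4184 (30.4%) higher in ABC1. Without 1 of the HCC4006 libraries the calls fell to 3155 or 3268 higher in HCC4006 and 2321 or 2381 higher in ABC1 (here and below, first without replicate 0 and then without replicate 1), in a fit that takes the spread of the lone library from the other line, and 25 of the genes named here lost their call without one or the other. A log2 difference of at least 1 together with a call was seen for 2908 genes (21.2%) higher in HCC4006 and 1849 (13.5%) higher in ABC1. The libraries of the lines did not overlap for 85.1% of the genes. The median log2 difference was 0.07, the median standard error was 0.13 and the smallest difference called was 0.24 on the log2 scale. Over genes, which do not replicate each other, the log2(FPKM + 1) values of the 2 libraries of a line correlated with a Pearson's r of 0.985 in ABC1 and 0.989 in HCC4006, and those of libraries of different lines with 0.731 to 0.743. HCC4006 expressed more genes, with 13515 and 13573 genes at 1 FPKM or more per library against 12602 and 12638 in ABC1. A mean of at least 1 FPKM in HCC4006 and under 0.1 FPKM in ABC1 was found for 993 genes, and the reverse for 278 genes. A gene expressed in 1 line only passes the minimum through that line and then has to differ. The counts of the gene groups below are therefore also given for the members that reached a mean of 1 FPKM in each line, to be read against the 63.4% called (32.5% higher in HCC4006 and 31.0% higher in ABC1) among all 11482 such genes. As a change of scale between the lines would move every gene, 15 reference genes were examined. Of these, 11 (73.3%) were called, 7 higher in HCC4006 and 4 higher in ABC1, with a median log2 difference of 0.13. Fewer of them were called when 1 HCC4006 library was left out. *GAPDH*, a glycolytic enzyme, had 1968 and 2557 FPKM in ABC1 and 2362 and 2278 FPKM in HCC4006 and was not called, whereas *ACTB*, cytoplasmic actin, had 3243 and 4449 FPKM in ABC1 and 6102 and 5756 FPKM in HCC4006, a log2 difference of 0.64 (adjusted p = 0.0267 in limma after Benjamini-Hochberg correction).

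**Figure D1:**
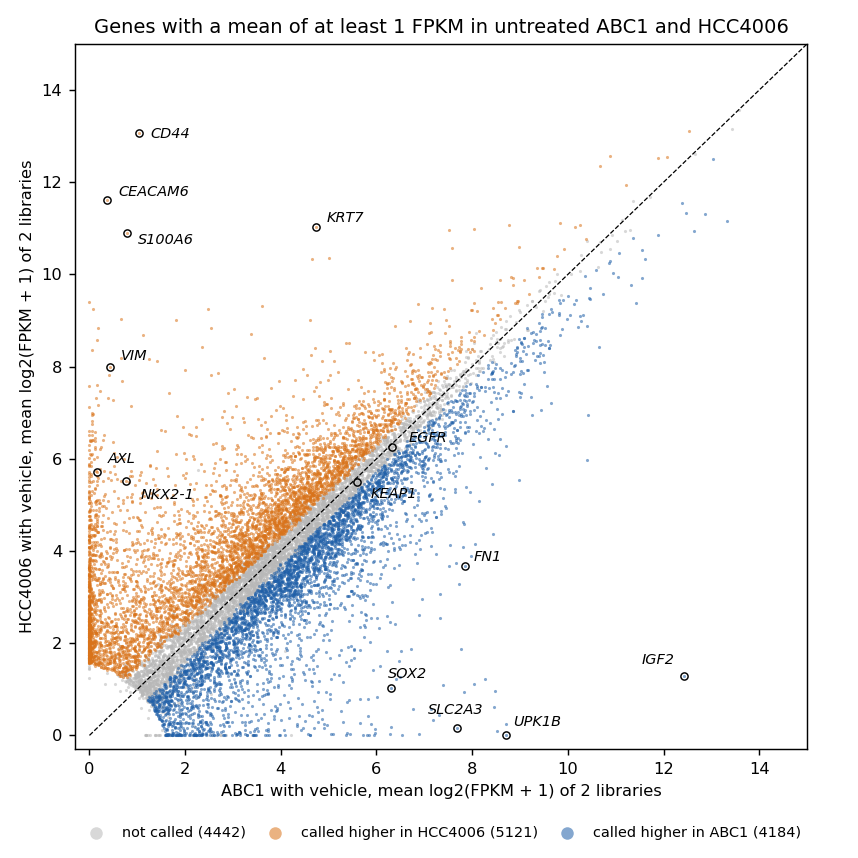
Mean log2(FPKM + 1) of the 2 vehicle libraries of ABC1 (horizontal axis) and HCC4006 (vertical axis) for the 13747 genes tested, 1 point per gene, coloured by the limma call at an adjusted p under 0.05, with equal levels on the dashed line. *CD44* and *IGF2* lie farthest from the line on either side, at log2 differences of 12.03 and -11.16, while *EGFR* and *KEAP1* lie on it.

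The 12 genes with the largest differences in favour of HCC4006 were led by the hyaluronan receptor. *CD44*, the hyaluronan receptor (ENSG00000026508.12, chromosome 11:35160429-35253949 of GRCh37), had 0.803 and 1.34 FPKM in ABC1 and 8890.1 and 8282 FPKM in HCC4006. This log2 difference of 12.03 (standard error 0.15) was the largest among the genes named here. *CEACAM6*, a glycosylphosphatidylinositol-anchored adhesion molecule of the carcinoembryonic antigen family, had 0.283 and 0.311 FPKM in ABC1 and 3111 and 3162 FPKM in HCC4006, although reads of this family may be split between near-identical members. *S100A6*, a calcium-binding protein, followed with 1.08 and 0.423 FPKM in ABC1 and 2005 and 1802 FPKM in HCC4006. *CCL2*, the chemokine that attracts monocytes, was listed at 0 in both ABC1 libraries and had 708 and 646 FPKM in HCC4006. *OCIAD2*, with 635 and 589 FPKM in HCC4006, *CTSZ*, a lysosomal carboxypeptidase, with 469.6 and 441, and *SPOCK2*, a matrix proteoglycan, with 384 and 375, were at or under 0.151 FPKM in every ABC1 library. *MSN* encodes moesin, which links actin to the plasma membrane, and had 0.0687 and practically 0 FPKM in ABC1 and 335 and 317 FPKM in HCC4006. *SLCO2A1*, a prostaglandin transporter, was listed at 0 in both ABC1 libraries and had 202 and 177 FPKM in HCC4006. *VIM*, the intermediate filament vimentin, had 0.346 and 0.352 FPKM in ABC1 and 283 and 229 FPKM in HCC4006, and *CRABP2*, a carrier of retinoic acid, had 0.986 and 1.37 FPKM in ABC1 and 412 and 406 FPKM in HCC4006. *CRIP1* had 0.582 and 0.574 FPKM in ABC1 and 536 and 514 FPKM in HCC4006, but the mean scaled count in the authors' table was only 24.8 for HCC4006, so that its level is uncertain. These 12 genes were chosen as called, with libraries that did not overlap between the lines and with the largest differences. Their adjusted p lay between 3.07e-06 and 6.24e-06 in limma after Benjamini-Hochberg correction. Both the separation and the small p follow from that choice and are no further support.

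In ABC1, the largest excess was that of a fetal growth factor. *IGF2*, insulin-like growth factor II (ENSG00000167244.13, chromosome 11:2150342-2179621 of GRCh37), had 5301 and 5810.1 FPKM in ABC1 and 1.12 and 1.79 FPKM in HCC4006, a log2 difference of -11.16 (standard error 0.15). *UPK1B* and *UPK2* encode uroplakins, the plaque proteins of bladder epithelium, and *VGLL1* encodes a partner of the TEAD factors. *UPK1B* had 400.4 and 431 FPKM in ABC1 and was listed at 0 in both HCC4006 libraries, and *UPK2* had 144 and 135 FPKM in ABC1 and 0.415 and 0.565 FPKM in HCC4006. *VGLL1* had 328 and 377 FPKM in ABC1 and 0.626 and 0.439 FPKM in HCC4006. *S100A9*, a calcium-binding protein best known from neutrophils, varied within ABC1, with 257 and 519 FPKM, and was at 0 and 0.153 FPKM in HCC4006. *SLC2A3*, the high-affinity glucose transporter GLUT3, had 209.8 and 201 FPKM in ABC1 and 0.0880 and 0.146 FPKM in HCC4006. *CLDN6* is a claudin known from embryonic epithelia and had 315 and 397 FPKM in ABC1 and 0.703 and 1.23 FPKM in HCC4006, and *SCARA3*, a scavenger receptor family member, had 237 and 287 FPKM in ABC1 and 1.28 and 1.08 FPKM in HCC4006. *CYP1B1*, a cytochrome P450 that oxidises steroids and aromatic hydrocarbons, had 184 and 281 FPKM in ABC1 and 1.13 and 0.739 FPKM in HCC4006. The remaining genes of this group were *PRSS35*, a serine protease relative, with 119 and 115 FPKM in ABC1, *PCSK6*, a proprotein convertase, with 179.9 and 157, and *CDKN2A*, with 88.7 and 94.7, against at most 1.13 FPKM in any HCC4006 library.

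The lines differed in the transcription factors of the lung. *NKX2-1*, the defining factor of the distal lung lineage (ENSG00000136352.13, chromosome 14:36985597-36990354 of GRCh37), had 0.626 and 0.763 FPKM in ABC1 and 47.1 and 42.7 FPKM in HCC4006, a log2 difference of 4.76 (standard error 0.12, adjusted p = 9.71e-06 in limma after Benjamini-Hochberg correction). *SOX2*, the factor of the airway and of squamous tumours (ENSG00000181449.2, chromosome 3:181429713-181432224 of GRCh37), showed the opposite order, with 75.1 and 81.4 FPKM in ABC1 and 0.841 and 1.23 FPKM in HCC4006 and a log2 difference of -5.29 (standard error 0.14, adjusted p = 1.03e-05 in limma after Benjamini-Hochberg correction). The ratio of the means was 64.6 for *NKX2-1* and 75.4 for *SOX2*. The forkhead factors FOXA1 to FOXA3 open chromatin at endodermal genes, and *FOXA1* had 12.1 and 14.2 FPKM in ABC1 and 46.1 and 44.5 FPKM in HCC4006. *FOXA2* and *FOXA3* were listed at 0 in both ABC1 libraries and had 6.76 and 4.77 and 6.34 and 6.11 FPKM in HCC4006, and *SOX9*, a factor of the embryonic lung tips, was likewise at 0 in ABC1 with 13.2 and 11.1 FPKM in HCC4006. ABC1 in turn expressed *ELF5*, an ETS factor of secretory epithelium, at 27.5 and 30.0 FPKM, *FOXP2* at 16.7 and 14.9 FPKM and *GATA6*, an endodermal GATA factor, at 7.59 and 8.57 FPKM. The HCC4006 libraries had 0.143 and 0.215, 0.104 and 0.0527 and 0.757 and 0.688 FPKM of these genes. Of 23 listed lung lineage factors, 19 were tested, with 12 called higher in HCC4006 and 7 higher in ABC1, and of the 8 with at least 1 FPKM in each line, 5 and 3. Their median log2 difference was 0.90, beside 0.07 over all genes tested.

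The products of alveolar cells did not all share the direction of *NKX2-1*. *SLC34A2*, the phosphate transporter of type II cells, had 0.155 and 0.0541 FPKM in ABC1 and 169 and 151 FPKM in HCC4006, and *NAPSA*, the aspartic protease that processes surfactant protein B, had 0.474 and 0.234 FPKM in ABC1 and 16.0 and 15.3 FPKM in HCC4006. *HOPX*, a homeodomain protein of type I cells, had 0.242 and 0.167 FPKM in ABC1 and 12.8 and 15.1 FPKM in HCC4006. The surfactant genes themselves were under the minimum in both lines: *SFTPA1* and *SFTPC* were listed at 0 in all 4 libraries, and *SFTPB* was listed at 0 in ABC1 and had 0.270 and 0.0386 FPKM in HCC4006. The secretoglobin *SCGB3A1* was at 0 in ABC1 with 10.4 and 9.58 FPKM in HCC4006. *SLPI*, a secreted inhibitor of leukocyte proteases, with 35.2 and 39.5 FPKM in ABC1 and 6.29 and 6.43 FPKM in HCC4006, and *AGER*, the type I cell receptor for glycation end products, with 5.29 and 5.43 FPKM in ABC1 and 0.632 and 0.376 FPKM in HCC4006, were higher in ABC1. *CTSH*, a cathepsin of lamellar bodies, had 450.1 and 408 FPKM in ABC1 and 352 and 386 FPKM in HCC4006, and *LPCAT1*, which makes surfactant phospholipid, had 205 and 198 FPKM in ABC1 and 212 and 224 FPKM in HCC4006, and neither was called. In all, 16 of 35 listed alveolar and airway products were tested, of which 10 were called higher in HCC4006 and 2 higher in ABC1, and of the 9 with at least 1 FPKM in each line 4 and 1. *NKX2-1* and *NAPSA*, the markers in diagnostic use for lung adenocarcinoma, were present in HCC4006, whereas both were under 1 FPKM in each ABC1 library. Surfactant genes were under the minimum in both lines, and *CTSH* and *LPCAT1* were abundant in both.

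The lines expressed different keratins. *KRT7*, the simple-epithelial keratin typical of lung adenocarcinoma, had 25.9 and 25.4 FPKM in ABC1 and 2106 and 2054 FPKM in HCC4006, a ratio of 81.2, and it was detected in both lines. *KRT13* and *KRT4* pair with each other in non-keratinised stratified epithelium. *KRT13* had 50.6 and 36.1 FPKM in ABC1 and 0.0425 and 0 FPKM in HCC4006, and *KRT4* had 75.3 and 58.8 FPKM in ABC1 and 1.73 and 1.93 FPKM in HCC4006. *KRT8*, *KRT18* and *KRT19*, keratins of simple epithelia, were abundant in both lines and higher in ABC1, with log2 differences of -1.56, -1.52 and -0.46, although *KRT8* and *KRT18* have many processed pseudogenes that may take reads. *KRT16*, a keratin of activated keratinocytes, had 0.276 and 0.272 FPKM in ABC1 and 15.5 and 14.4 FPKM in HCC4006. Of 12 keratins tested, 9 were called higher in ABC1 and 2 in HCC4006, and among the 8 with at least 1 FPKM in each line 6 and 1. *KRT5* and *KRT14*, the keratins that define basal and squamous cells, were under the minimum. *TP63*, the basal factor, had 1.01 and 1.17 FPKM in ABC1 and 6.85 and 5.90 FPKM in HCC4006.

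HOX genes, which record position along the body axis, were for the most part expressed in HCC4006 alone or in neither line. *HOXC10* and *HOXA10* were listed at 0 in both ABC1 libraries and had 35.9 and 35.3 and 31.1 and 32.6 FPKM in HCC4006. *HOXB7* had 8.04 and 7.96 FPKM in ABC1 and 61.4 and 57.2 FPKM in HCC4006 and so was detected in both lines. *HOXA5*, a gene with a role in lung development, and its neighbour *HOXA6* were the exceptions, with 7.93 and 6.57 FPKM in ABC1 and 1.62 and 0.857 FPKM in HCC4006 and with 4.40 and 5.11 FPKM in ABC1 and 0.400 and 0.0774 FPKM in HCC4006, respectively. Of 39 HOX genes listed, 23 were tested, of which 19 were called higher in HCC4006 and 2 higher in ABC1, but only 4 had at least 1 FPKM in each line, of which 1 was called in each direction. The summed level of all listed HOX genes was 33.7 to 37.3 FPKM in the ABC1 libraries and 248 to 263 FPKM in the HCC4006 libraries. Genes of a HOX cluster overlap each other and their antisense transcripts, so that single values are uncertain where the counting ignored strand, which is not given in the sources used here.

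**Figure D2:**
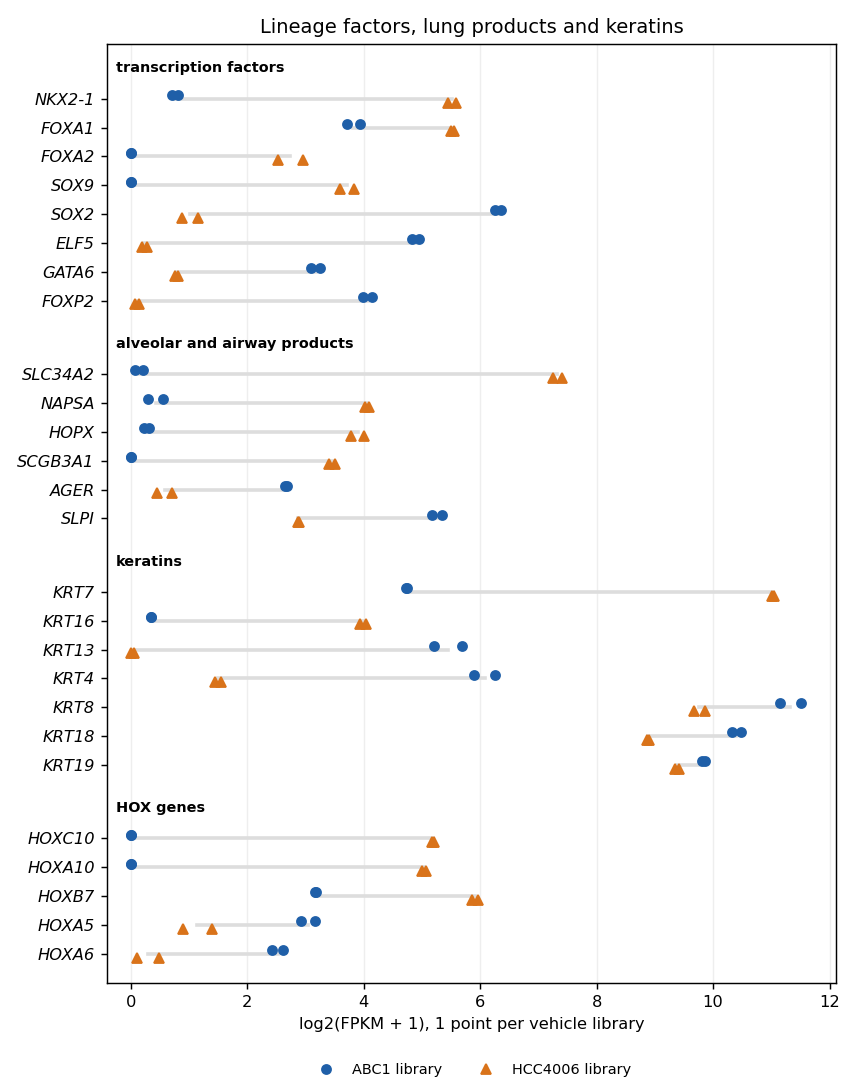
Expression of lineage factors, lung products, keratins and HOX genes in log2(FPKM + 1) (horizontal axis), with 1 point per vehicle library, circles for ABC1 and triangles for HCC4006, and a grey line that joins the means. *NKX2-1* and *SOX2* lie at opposite ends in the lines, and the simple-epithelial keratins *KRT8*, *KRT18* and *KRT19* lie high in both.

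Both lines expressed the epithelial genes. *CDH1*, which encodes E-cadherin (chromosome 16:68771195-68869440 of GRCh37), had 101 and 137 FPKM in ABC1 and 158 and 155 FPKM in HCC4006, a log2 difference of 0.40 with a 95% interval from 0.00 to 0.81, and it was not called (adjusted p = 0.0699 in limma after Benjamini-Hochberg correction). Without replicate 1 of ABC1 the difference was 0.62 and was called (adjusted p = 0.0053 in limma after Benjamini-Hochberg correction). *EPCAM*, an epithelial adhesion molecule, was higher in ABC1, with 388 and 401 FPKM in ABC1 and 234 and 255 FPKM in HCC4006. All 32 listed genes of the epithelial state were tested and had at least 1 FPKM in each line, and 18 were called higher in ABC1, 6 higher in HCC4006 and 8 neither. Leaving out 1 HCC4006 library left 4 higher in HCC4006 and 10 or 12 in ABC1. Their median log2 difference was -0.49, beside 0.07 over all genes tested. The members higher in ABC1 included the transcription factors *GRHL1*, *GRHL2*, *OVOL1* and *KLF5*, of which *GRHL2*, an activator of epithelial junction genes, had 33.2 and 35.3 FPKM in ABC1 and 11.6 and 12.2 FPKM in HCC4006. *OVOL1*, a zinc finger repressor, had 12.4 and 13.2 FPKM in ABC1 and 1.60 and 1.44 FPKM in HCC4006, and *PARD6B*, a polarity protein, had 13.8 and 10.5 FPKM in ABC1 and 1.30 and 1.36 FPKM in HCC4006. *EHF*, an epithelial ETS factor, stood against this direction with 17.0 and 12.8 FPKM in ABC1 and 140.0 and 143 FPKM in HCC4006.

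HCC4006 expressed mesenchymal genes beside these epithelial genes. After *VIM*, *TGFBI*, a matrix protein induced by TGF-beta, had 0.835 and 0.366 FPKM in ABC1 and 287 and 290.4 FPKM in HCC4006, a log2 difference of 7.51 (standard error 0.16). *SPARC*, a collagen-binding matrix protein, had 0 and 0.785 FPKM in ABC1 and 225 and 224 FPKM in HCC4006. *TGFB1* and *TGFB2* encode the cytokines themselves, and *TGFB1* had 5.85 and 6.61 FPKM in ABC1 and 55.8 and 49.9 FPKM in HCC4006. *SNAI2*, a repressor of E-cadherin, had 0.809 and 1.40 FPKM in ABC1 and 16.3 and 17.1 FPKM in HCC4006, *CDH2*, which encodes N-cadherin, had 0.290 and 0.702 FPKM in ABC1 and 6.23 and 7.55 FPKM in HCC4006, and *CDH11*, a mesenchymal cadherin, had 0.181 and 0.244 FPKM in ABC1 and 12.3 and 13.5 FPKM in HCC4006. The repressors *ZEB1*, *ZEB2* and *TWIST1* were under the minimum, with at most 0.392 FPKM in any library, and *SNAI1* had 0.806 and 1.26 FPKM in ABC1 and 1.55 and 1.47 FPKM in HCC4006 and was not called. The list did not move as a whole. *FN1*, fibronectin, was higher in ABC1 with 216 and 242 FPKM in ABC1 and 13.2 and 10.5 FPKM in HCC4006, a log2 difference of -4.17 (standard error 0.13), and so were the contractile genes *TAGLN*, with 16.1 and 12.9 FPKM in ABC1 and 1.38 and 0.936 FPKM in HCC4006, and *MYL9*, with 17.7 and 19.0 FPKM in ABC1 and 1.02 and 2.12 FPKM in HCC4006. Of 44 listed mesenchymal genes, 32 were tested, with 22 called higher in HCC4006 and 8 higher in ABC1, but of the 16 with at least 1 FPKM in each line 7 were higher in each direction. The median over the 32 was 2.38 on the log2 scale. In bulk libraries, expression in fewer cells and less RNA per cell cannot be told apart, and this holds for each gene here.

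Junction genes differed in both directions. *CLDN6* and *CLDN3* were higher in ABC1, and *CLDN3*, a claudin that seals tight junctions, had 95.9 and 95.4 FPKM in ABC1 and 16.3 and 16.6 FPKM in HCC4006. *CLDN1*, with 50.1 and 56.2 FPKM in ABC1 and 104 and 109.7 FPKM in HCC4006, and *CLDN7*, with 70.0 and 68.6 FPKM in ABC1 and 124 and 117 FPKM in HCC4006, were higher in HCC4006, so that 4 of 9 claudins tested were called in each direction, and 3 each of the 7 with at least 1 FPKM in each line. *CDH3*, which encodes P-cadherin, had 19.4 and 38.6 FPKM in ABC1 and 219 and 185 FPKM in HCC4006, a log2 difference of 2.83 (standard error 0.32). *DSP* and *PKP2*, which anchor keratin in desmosomes, were higher in ABC1, with 67.5 and 57.8 FPKM in ABC1 and 8.65 and 8.86 FPKM in HCC4006 for *DSP* and 35.4 and 34.5 FPKM in ABC1 and 5.57 and 6.03 FPKM in HCC4006 for *PKP2*. *PKP1*, a plakophilin of stratified epithelium, was listed at 0 in both ABC1 libraries and had 6.88 and 6.80 FPKM in HCC4006. Among 16 desmosome and hemidesmosome genes tested, 7 were called higher in ABC1 and 5 in HCC4006, and of the 15 with at least 1 FPKM in each line 7 and 4. With 1 HCC4006 library left out, 3 were higher in HCC4006 and 5 in ABC1.

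Several integrins, the receptors for matrix, were far higher in HCC4006. *ITGA3*, the alpha subunit of a laminin receptor, had 4.69 and 6.20 FPKM in ABC1 and 243 and 218 FPKM in HCC4006, a log2 difference of 5.18 (standard error 0.14), and *ITGA6*, another laminin receptor subunit, had 8.08 and 9.89 FPKM in ABC1 and 91.6 and 89.9 FPKM in HCC4006. *ITGB6*, the epithelial beta subunit that activates latent TGF-beta, was at most 0.0304 FPKM in ABC1 and 30.0 and 30.8 FPKM in HCC4006. *ITGA5*, the subunit of the fibronectin receptor, had 0.558 and 0.404 FPKM in ABC1 and 16.8 and 14.7 FPKM in HCC4006, so that the line with more *FN1* had less of it. *ITGB1*, the common beta subunit, had 446 and 563 FPKM in ABC1 and 617 and 581 FPKM in HCC4006 and was not called, and *ITGB4*, the partner of *ITGA6* in hemidesmosomes, had 58.0 and 71.5 FPKM in ABC1 and 57.3 and 47.8 FPKM in HCC4006 and was not called either. *ITGB8* was higher in ABC1, with 5.80 and 6.41 FPKM in ABC1 and 1.65 and 1.96 FPKM in HCC4006. Of 12 integrins tested, 7 were called higher in HCC4006 and 3 in ABC1, and of the 9 with at least 1 FPKM in each line 4 and 3. Of those higher in ABC1, 1 was called without either HCC4006 library or without replicate 1 of ABC1.

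Matrix genes with large differences were found in both lines. *COL4A1* and *COL4A2* share a promoter and encode the main chains of basement membrane collagen. *COL4A2* had 0.120 and 0.132 FPKM in ABC1 and 146 and 141 FPKM in HCC4006, and *COL4A1* had 0.0734 and 0.159 FPKM in ABC1 and 45.6 and 44.7 FPKM in HCC4006. *TNC*, tenascin-C, had 0.0136 and 0.0299 FPKM in ABC1 and 83.7 and 80.5 FPKM in HCC4006, and *PLAU*, the urokinase, had 0.0315 and 0.0347 FPKM in ABC1 and 110.4 and 115 FPKM in HCC4006. Its receptor *PLAUR* had 6.88 and 9.95 FPKM in ABC1 and 116 and 119 FPKM in HCC4006, and the metalloprotease *MMP2* was listed at 0 in ABC1 with 35.0 and 34.5 FPKM in HCC4006. *TIMP3*, an inhibitor of metalloproteases bound to matrix, had the reverse order with 95.2 and 120.5 FPKM in ABC1 and 0.530 and 0.425 FPKM in HCC4006, whereas *TIMP1* had 14.8 and 18.0 FPKM in ABC1 and 128 and 119 FPKM in HCC4006. The laminin chains split in the same way. *LAMA5*, *LAMB1* and *LAMC1* form the laminin of mature epithelial basement membranes and were higher in ABC1, with 184 and 142 FPKM in ABC1 and 52.8 and 42.8 FPKM in HCC4006 for *LAMA5*. *LAMA3*, a chain of the laminin that holds hemidesmosomes, was higher in HCC4006 with 3.09 and 2.29 FPKM in ABC1 and 9.14 and 7.07 FPKM in HCC4006. Among 31 tested genes of this list, 20 were called higher in HCC4006 and 7 in ABC1, and among the 19 with at least 1 FPKM in each line 9 and 6.

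**Figure D3:**
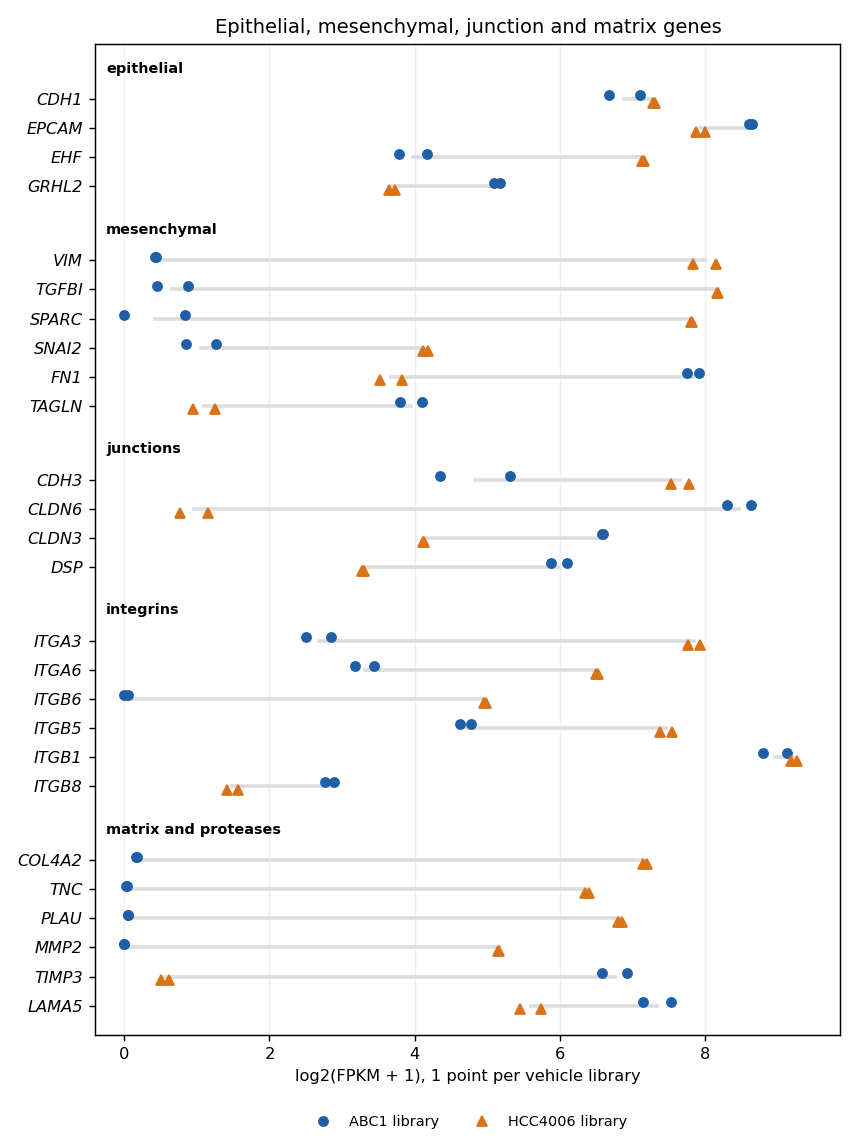
Expression of epithelial, mesenchymal, junction, integrin and matrix genes in log2(FPKM + 1) (horizontal axis), with 1 point per vehicle library, circles for ABC1 and triangles for HCC4006, and a grey line that joins the means. *CDH1* and *ITGB1* lie close together in the lines, *VIM* and *ITGA3* lie far higher in HCC4006, and *FN1* and *TIMP3* lie far higher in ABC1.

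The *EGFR* values of the lines overlapped. *EGFR* (ENSG00000146648.11, chromosome 7:55086710-55279321 of GRCh37) had 89.1 and 70.0 FPKM in ABC1 and 76.3 and 73.7 FPKM in HCC4006, a log2 difference of -0.07 with a 95% interval from -0.42 to 0.27, and was not called (adjusted p = 0.649 in limma after Benjamini-Hochberg correction). The sign rested on 1 library, as the difference was 0.10 without replicate 0 of ABC1 and -0.24 without its replicate 1 (adjusted p = 0.0469 in limma after Benjamini-Hochberg correction). Its partners *ERBB2*, with 54.5 and 46.7 FPKM in ABC1 and 31.5 and 31.5 FPKM in HCC4006, and *ERBB3*, with 60.5 and 55.3 FPKM in ABC1 and 22.8 and 20.4 FPKM in HCC4006, were higher in ABC1. *MET*, the receptor of hepatocyte growth factor, was higher in HCC4006, with 41.8 and 53.8 FPKM in ABC1 and 102 and 108 FPKM in HCC4006. The calls of *ERBB2* and *MET* were lost without either HCC4006 library. The TAM receptors AXL, MERTK and TYRO3 bind the ligand GAS6. *AXL* had 0.193 and 0.0313 FPKM in ABC1 and 54.0 and 49.4 FPKM in HCC4006, a log2 difference of 5.57 (standard error 0.13), and *MERTK* had 5.60 and 5.82 FPKM in ABC1 and 33.3 and 31.1 FPKM in HCC4006. *TYRO3* had the reverse order, with 15.2 and 18.2 FPKM in ABC1 and 7.77 and 5.71 FPKM in HCC4006. Their ligand *GAS6* had 0.0321 and 0.144 FPKM in ABC1 and 76.7 and 73.8 FPKM in HCC4006, so that HCC4006 expressed receptor and ligand together and ABC1 neither *AXL* nor *GAS6* above 0.193 FPKM. The FGF receptors differed in both directions, with *FGFR1* at 2.47 and 2.90 FPKM in ABC1 and 28.5 and 19.4 FPKM in HCC4006, *FGFR2* at 22.1 and 21.9 FPKM in ABC1 and 7.13 and 5.90 FPKM in HCC4006 and *FGFR3* at 37.8 and 42.2 FPKM in ABC1 and 2.43 and 1.68 FPKM in HCC4006. *IGF1R*, which IGF2 activates, had 39.3 and 48.0 FPKM in ABC1 and 24.2 and 20.4 FPKM in HCC4006 and so was higher in the line with *IGF2*. The calls of *TYRO3* and *IGF1R* were lost without replicate 1 of HCC4006. Of 58 receptor tyrosine kinases listed, 33 were tested, with 15 called higher in ABC1 and 13 in HCC4006, and of the 26 with at least 1 FPKM in each line 13 and 8.

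The EGFR family ligands differed from gene to gene. *TGFA*, a ligand of EGFR, had 6.52 and 5.58 FPKM in ABC1 and 29.2 and 30.2 FPKM in HCC4006, a log2 difference of 2.13 (standard error 0.11), whereas *HBEGF*, another, had 7.32 and 6.70 FPKM in ABC1 and 3.27 and 3.75 FPKM in HCC4006. *NRG1*, the ligand of ERBB3, was practically absent from ABC1 and had 8.27 and 8.65 FPKM in HCC4006. *AREG* and *EREG* were under the minimum in both lines. *PDGFD* and *PDGFC* were higher in ABC1, with 40.5 and 36.6 FPKM in ABC1 and 0.254 and 0.198 FPKM in HCC4006 for *PDGFD* and 54.5 and 47.9 FPKM in ABC1 and 9.57 and 12.7 FPKM in HCC4006 for *PDGFC*, while their receptors *PDGFRA* and *PDGFRB* were under the minimum in these lines. *FGFBP1*, which releases FGFs from matrix, had 5.84 and 6.23 FPKM in ABC1 and 76.3 and 72.4 FPKM in HCC4006. In the list of ligands, 30 of 49 were tested, and 15 were called higher in HCC4006 and 9 in ABC1, but of the 21 with at least 1 FPKM in each line 8 and 7.

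Several genes that ERK induces were far higher in HCC4006. *FOSL1*, which encodes the AP-1 factor FRA-1, had 0.236 and 0.188 FPKM in ABC1 and 87.1 and 81.8 FPKM in HCC4006, a log2 difference of 6.14 (standard error 0.11). *DUSP6*, the phosphatase that inactivates ERK, had 5.62 and 7.47 FPKM in ABC1 and 178 and 167 FPKM in HCC4006, and *ETV1*, an ETS factor downstream of ERK, had 0.0996 and 0.0222 FPKM in ABC1 and 31.7 and 26.0 FPKM in HCC4006. *CCND1*, cyclin D1, had 156 and 188 FPKM in ABC1 and 445 and 399.7 FPKM in HCC4006, and *SPRY4*, a feedback inhibitor, had 1.53 and 2.22 FPKM in ABC1 and 8.36 and 7.48 FPKM in HCC4006. Other feedback genes went the other way: *SPRY1* had 48.7 and 39.3 FPKM in ABC1 and 4.64 and 5.56 FPKM in HCC4006, and *DUSP10*, a phosphatase of the stress kinases, had 63.2 and 46.7 FPKM in ABC1 and 12.4 and 13.2 FPKM in HCC4006. *MYC*, with 32.7 and 27.7 FPKM in ABC1 and 25.2 and 22.2 FPKM in HCC4006, and *EGR1*, with 19.4 and 13.7 FPKM in ABC1 and 21.8 and 20.5 FPKM in HCC4006, were not called. Of 30 genes tested, 16 were called higher in HCC4006 and 9 in ABC1, with a median log2 difference of 0.38, and of the 28 with at least 1 FPKM in each line 14 and 9. The calls became 8 for HCC4006 and 5 for ABC1 without 1 of the HCC4006 libraries.

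**Figure D4:**
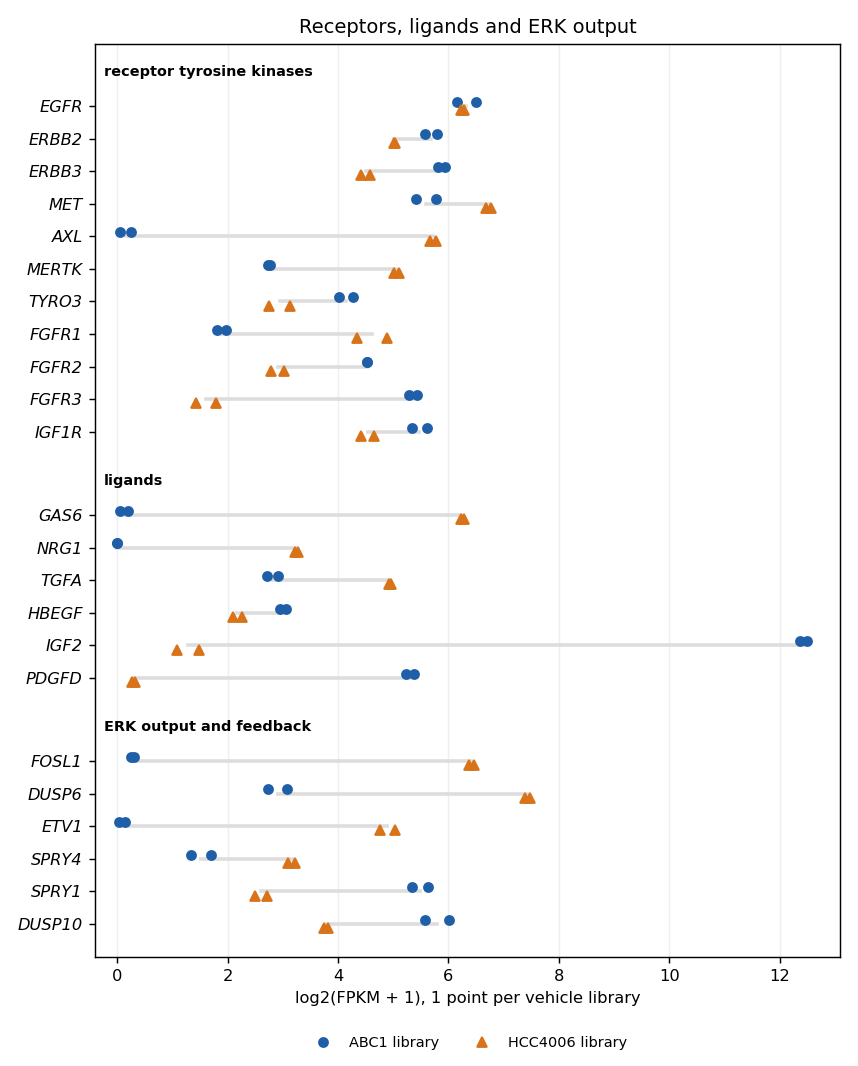
Expression of receptor tyrosine kinases, their ligands and genes downstream of ERK in log2(FPKM + 1) (horizontal axis), with 1 point per vehicle library, circles for ABC1 and triangles for HCC4006, and a grey line that joins the means. *EGFR* overlaps between the lines, *AXL*, *GAS6* and *FOSL1* lie above 5 in HCC4006 alone, and *IGF2* lies above 12 in ABC1 alone.

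Neither gene of the KEAP1-NRF2 pair was called. *NFE2L2* (ENSG00000116044.11, chromosome 2:178083395-178257484 of GRCh37) had 57.0 and 69.5 FPKM in ABC1 and 80.8 and 73.8 FPKM in HCC4006, a log2 difference of 0.29 with a 95% interval from -0.03 to 0.61 (adjusted p = 0.0938 in limma after Benjamini-Hochberg correction), and without replicate 1 of ABC1 it was 0.43 and was called (adjusted p = 0.0265 in limma after Benjamini-Hochberg correction). *KEAP1* had 47.0 and 46.9 FPKM in ABC1 and 44.3 and 43.7 FPKM in HCC4006, a log2 difference of -0.09 with an interval from -0.31 to 0.12 (adjusted p = 0.372 in limma after Benjamini-Hochberg correction). *SQSTM1*, the autophagy adaptor p62 that binds KEAP1, was 4.94-fold higher in HCC4006, with 183 and 199 FPKM in ABC1 and 965 and 924 FPKM in HCC4006. *MAFK*, a small MAF partner of NRF2 on DNA, had 21.1 and 19.3 FPKM in ABC1 and 39.2 and 41.3 FPKM in HCC4006. *BACH1*, which competes with NRF2 for the same sites, had 6.16 and 5.90 FPKM in ABC1 and 7.73 and 10.5 FPKM in HCC4006, a call that was lost when any 1 library was left out, with an adjusted p of 0.0552 to 0.178. All 16 listed genes of the circuit were tested, and 6 were called higher in HCC4006, 4 higher in ABC1 and 6 neither. Leaving out 1 HCC4006 library left 2 or 3 higher in HCC4006 and 0 in ABC1. These are transcript levels, and NRF2 activity is set largely at the level of the protein, which was not measured in these files.

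The targets of NRF2 did not share a direction. *NQO1*, the quinone reductase that serves as the usual readout of NRF2 (ENSG00000181019.8, chromosome 16:69740899-69760571 of GRCh37), had 56.0 and 82.8 FPKM in ABC1 and 273 and 269 FPKM in HCC4006, a log2 difference of 1.97 (standard error 0.19, adjusted p = 0.000521 in limma after Benjamini-Hochberg correction). Glutathione synthesis starts with glutamate-cysteine ligase, whose subunits went in opposite directions. The catalytic subunit *GCLC* had 20.8 and 31.2 FPKM in ABC1 and 84.0 and 83.1 FPKM in HCC4006, a call that was lost without either HCC4006 library, whereas the modifier subunit *GCLM* had 15.2 and 17.6 FPKM in ABC1 and 8.13 and 7.72 FPKM in HCC4006, a log2 difference of -0.96 (standard error 0.12, adjusted p = 0.00118 in limma after Benjamini-Hochberg correction). *SLC7A11*, the cystine transporter, had 7.97 and 7.82 FPKM in ABC1 and 6.02 and 6.33 FPKM in HCC4006, a small difference that was called at an adjusted p of 0.0484 in limma after Benjamini-Hochberg correction, and that was lost when any 1 library was left out, with an adjusted p of 0.109 to 0.206. *TXNRD1*, thioredoxin reductase, had 161 and 196 FPKM in ABC1 and 167 and 174 FPKM in HCC4006 and was not called. The enzymes *ALDH3A1* and *ME1* and the transporter *ABCC3* were expressed in HCC4006 alone. *ALDH3A1*, an aldehyde dehydrogenase, had 0 and 0.112 FPKM in ABC1 and 126 and 124 FPKM in HCC4006, *ME1*, the malic enzyme that makes NADPH, had 0.331 and 0.209 FPKM in ABC1 and 29.3 and 29.9 FPKM in HCC4006, and *ABCC3*, an exporter of conjugates, had 0.172 and 0.0140 FPKM in ABC1 and 90.9 and 75.5 FPKM in HCC4006. Conversely, *HMOX1*, heme oxygenase, had 17.3 and 20.1 FPKM in ABC1 and 5.59 and 5.89 FPKM in HCC4006, *GPX2*, a glutathione peroxidase of gut epithelium, had 3.25 and 3.61 FPKM in ABC1 and 0.371 and 0.403 FPKM in HCC4006, and *PRDX1*, a peroxiredoxin, had 406 and 452 FPKM in ABC1 and 171 and 181 FPKM in HCC4006. *PIR*, pirin, had 25.1 and 26.1 FPKM in ABC1 and 10.0 and 9.68 FPKM in HCC4006, and *TKT*, transketolase of the pentose phosphate pathway, had 577 and 777 FPKM in ABC1 and 324 and 279.6 FPKM in HCC4006. The aldo-keto reductases share sequence, so their single values are uncertain: *AKR1B1* was at most 0.0514 FPKM in ABC1 with 68.8 and 65.7 FPKM in HCC4006, and *AKR1C3* had 10.6 and 18.8 FPKM in ABC1 and 0.331 and 0.709 FPKM in HCC4006. *AKR1C1* had 0.863 and 0.834 FPKM in ABC1 and 1.35 and 1.01 FPKM in HCC4006 and was not called, and *NR0B1* was under the minimum. In the battery of 46 genes, 43 were tested, with 19 called higher in HCC4006, 16 higher in ABC1 and 8 neither. With 1 HCC4006 library left out, 14 or 15 were higher in HCC4006 and 9 in ABC1. The 32 members with at least 1 FPKM in each line had 12 and 13 calls in these directions, and the median log2 difference over the 43 was 0.16, beside 0.07 over all genes tested.

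NRF2 and its small MAF partners bind the antioxidant response element, whose core is written TGACNNNGC. This core was searched on both strands of the promoter sequences of RefSeq on GRCh38.p14, which surround each gene's start, a build other than that of the expression files. It was present in the promoters of 16.1% of 27305 genes, and in those of 10 of 30 battery genes with an entry (33.3%). The matched battery genes lay on both sides of the comparison, with *CBR1*, *EPHX1*, *IDH1* and *ME1* called higher in HCC4006 and *GCLM*, *GPX2* and *PIR* called higher in ABC1. A match is only a run of letters, and binding was not measured in these files. The stretches around the match are shown for 1 gene higher in HCC4006 and 2 genes higher in ABC1, since these carry the same core with opposite differences. They are written 5′ to 3′ on the strand of the gene, with the 9 bases of the core in capitals, on the strand of the gene in *ME1* and on the opposite strand in *GPX2* and *GCLM*.
ME1, GRCh38.p14 chr6:83431164-83431213, minus strand: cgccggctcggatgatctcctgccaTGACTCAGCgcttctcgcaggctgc
GPX2, GRCh38.p14 chr14:64942843-64942892, minus strand: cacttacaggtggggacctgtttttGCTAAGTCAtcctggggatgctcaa
GCLM, GRCh38.p14 chr1:93909440-93909489, minus strand: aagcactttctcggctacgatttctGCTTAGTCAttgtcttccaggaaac
The match began 137 bases before the start in *ME1*, 122 in *GPX2* and 34 in *GCLM*. *ME1* had a log2 difference of 4.59, against -1.67 for *GPX2* and -0.96 for *GCLM*.

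Among peroxide and glutathione enzymes, *CAT* and *GPX3* were higher in HCC4006 and *PRDX6* in ABC1. *CAT*, catalase, which breaks down hydrogen peroxide in peroxisomes, had 8.94 and 8.54 FPKM in ABC1 and 158 and 164 FPKM in HCC4006, a log2 difference of 4.06 (standard error 0.09). *GPX3*, a secreted glutathione peroxidase, had 0.105 and 0.122 FPKM in ABC1 and 44.9 and 39.9 FPKM in HCC4006. *PRDX6*, a peroxiredoxin that also acts as a phospholipase, had the reverse order with 370.0 and 386 FPKM in ABC1 and 65.7 and 66.9 FPKM in HCC4006, a log2 difference of -2.49 (standard error 0.08). *CBS* and *CTH* lead from homocysteine to cysteine in sequence. *CBS* had 13.5 and 15.9 FPKM in ABC1 and 93.7 and 93.6 FPKM in HCC4006, whereas *CTH* had 40.6 and 42.7 FPKM in ABC1 and 9.50 and 9.23 FPKM in HCC4006. *GSTP1*, the main glutathione transferase of many tumours, had 606 and 635 FPKM in ABC1 and 319.8 and 311 FPKM in HCC4006, and *GLO1*, which clears methylglyoxal with glutathione, had 129.5 and 154 FPKM in ABC1 and 32.9 and 34.8 FPKM in HCC4006. *NNT*, the mitochondrial transhydrogenase that makes NADPH, had 6.41 and 4.75 FPKM in ABC1 and 50.9 and 47.4 FPKM in HCC4006. *PRDX3*, the mitochondrial peroxiredoxin, with 21.6 and 18.7 FPKM in ABC1 and 19.9 and 24.1 FPKM in HCC4006, and *TXN*, thioredoxin, with 171 and 222 FPKM in ABC1 and 199 and 209 FPKM in HCC4006, were not called. Of 41 glutathione genes tested, 22 were called higher in HCC4006 and 14 in ABC1, and of the 33 with at least 1 FPKM in each line 16 and 12. Without 1 of the HCC4006 libraries, 18 or 17 were higher in HCC4006 and 6 in ABC1, and 9 were higher in ABC1 without its replicate 1. Of 26 genes of the thioredoxin, peroxiredoxin, catalase and superoxide dismutase list, 9 and 7 were called, with a median log2 difference of 0.003, and of the 24 with at least 1 FPKM in each line 8 and 7. The calls became 6 for HCC4006 and 3 or 4 for ABC1 without 1 of the HCC4006 libraries.

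**Figure D5:**
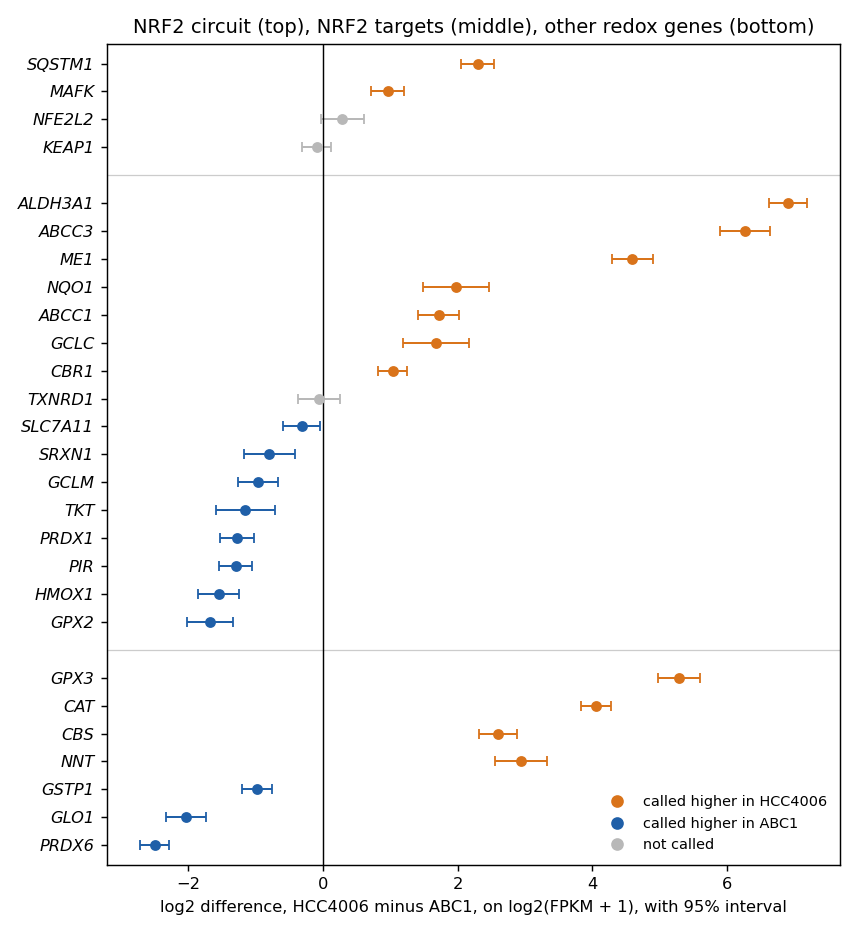
Log2 difference of HCC4006 minus ABC1 on log2(FPKM + 1) (horizontal axis) with its 95% interval for genes of the NRF2 circuit (top), NRF2 targets (middle) and other redox genes (bottom), 1 point per gene from 2 libraries per line, coloured by the limma call. The intervals of *NFE2L2* and *KEAP1* cross 0, and the targets shown run from 6.90 for *ALDH3A1* to -1.67 for *GPX2*. Other targets are not shown, among them *AKR1C3*, which had a larger excess in ABC1 than *GPX2*.

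Enzymes that handle aldehydes and foreign compounds were more often called higher in HCC4006 than in ABC1. *ALDH1A3*, which makes retinoic acid, had 2.96 and 5.53 FPKM in ABC1 and 344 and 342 FPKM in HCC4006, a log2 difference of 6.08 (standard error 0.24). *ALDH7A1* was listed at 0 in both ABC1 libraries and had 48.6 and 54.6 FPKM in HCC4006, and *ALDH2*, the mitochondrial enzyme that oxidises acetaldehyde, had 0.202 and 0 FPKM in ABC1 and 33.8 and 32.0 FPKM in HCC4006. The aryl hydrocarbon receptor *AHR* had 29.4 and 31.9 FPKM in ABC1 and 102 and 97.6 FPKM in HCC4006. Its classical targets went in opposite directions, since *CYP1A1* had 6.81 and 15.9 FPKM in ABC1 and 124 and 109 FPKM in HCC4006 while *CYP1B1* was higher in ABC1. The call of *CYP1A1* was lost without either HCC4006 library. *CYP2S1* was also higher in ABC1, with 80.5 and 83.2 FPKM in ABC1 and 13.1 and 9.84 FPKM in HCC4006. Of 39 genes tested, 23 were called higher in HCC4006 and 12 in ABC1, and of the 22 with at least 1 FPKM in each line 14 and 5.

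The metallothioneins described were higher in HCC4006, and the iron genes differed in both directions. Metallothioneins bind zinc and copper and are near-identical in sequence, so that single values are uncertain. *MT2A* had 11.0 and 11.3 FPKM in ABC1 and 646 and 631 FPKM in HCC4006, *MT1X* had 1.12 and 0.966 FPKM in ABC1 and 42.2 and 48.7 FPKM in HCC4006, and *MT1E* was listed at 0 in ABC1 with 131 and 147 FPKM in HCC4006. *SLC40A1*, ferroportin, the iron exporter, was higher in ABC1 with 46.0 and 40.2 FPKM in ABC1 and 2.67 and 1.62 FPKM in HCC4006, and so was *TFRC*, the transferrin receptor that takes up iron, with 189 and 155 FPKM in ABC1 and 99.2 and 104 FPKM in HCC4006. *LCN2*, the siderophore binder lipocalin 2, was listed at 0 in ABC1 with 53.0 and 47.4 FPKM in HCC4006. *FTH1*, the ferritin heavy chain with many pseudogenes, had 1539.8 and 2291 FPKM in ABC1 and 6444 and 5778 FPKM in HCC4006, while *FTL*, the light chain, had 1709.9 and 2007 FPKM in ABC1 and 1238 and 1176 FPKM in HCC4006. Among 28 genes tested, 14 were called higher in HCC4006 and 9 in ABC1, but of the 21 with at least 1 FPKM in each line 7 and 9, the reverse order. Leaving out 1 HCC4006 library left 13 higher in HCC4006 and 6 or 5 in ABC1.

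Genes of glycolysis and of NADPH supply formed a single list. Against the GLUT3 transporter in ABC1, HCC4006 expressed *PFKP*, the platelet form of phosphofructokinase, with 1.71 and 1.64 FPKM in ABC1 and 283 and 273 FPKM in HCC4006, a log2 difference of 6.70 (standard error 0.09). *HK2*, hexokinase 2, had 2.10 and 1.56 FPKM in ABC1 and 20.9 and 21.9 FPKM in HCC4006, and *PFKFB3*, which makes the activator of phosphofructokinase, had 10.2 and 9.13 FPKM in ABC1 and 87.0 and 84.9 FPKM in HCC4006. Of the oxidative part of the pentose phosphate pathway, *PGD* had 144 and 191 FPKM in ABC1 and 187 and 191 FPKM in HCC4006 and was not called. *IDH2*, the mitochondrial isocitrate dehydrogenase, had 90.7 and 97.8 FPKM in ABC1 and 33.4 and 32.2 FPKM in HCC4006, whereas *IDH1*, the cytosolic form, had 37.4 and 36.9 FPKM in ABC1 and 50.4 and 53.5 FPKM in HCC4006. Of 32 genes of this list tested, 16 were called higher in HCC4006 and 10 in ABC1, and of the 28 with at least 1 FPKM in each line 13 and 9. With 1 HCC4006 library left out, 9 or 8 were higher in HCC4006 and 3 in ABC1.

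*NOTCH3*, the receptor at the centre of the study (ENSG00000074181.4, chromosome 19:15269849-15311806 of GRCh37), was 5.87-fold higher in ABC1, with 16.2 and 16.1 FPKM in ABC1 and 3.01 and 2.49 FPKM in HCC4006, a log2 difference of -2.20 (standard error 0.12, adjusted p = 8.46e-05 in limma after Benjamini-Hochberg correction). *NOTCH1* had 6.31 and 6.87 FPKM in ABC1 and 2.63 and 2.33 FPKM in HCC4006 and was also called, while *NOTCH2* had 12.8 and 9.18 FPKM in ABC1 and 12.3 and 12.2 FPKM in HCC4006 and was not. The NOTCH target *HES1* had 24.7 and 25.8 FPKM in ABC1 and 13.3 and 11.6 FPKM in HCC4006, but *HES4* had 5.0 and 7.50 FPKM in ABC1 and 25.7 and 20.3 FPKM in HCC4006 and *HEYL* had 0.0927 and 0.0204 FPKM in ABC1 and 2.48 and 1.81 FPKM in HCC4006. *LFNG*, which modifies NOTCH receptors with sugar, had 3.63 and 5.01 FPKM in ABC1 and 28.3 and 27.7 FPKM in HCC4006, and *ADAM10*, the protease that cleaves them, had 153 and 157 FPKM in ABC1 and 63.3 and 68.1 FPKM in HCC4006. Of 32 genes of the pathway tested, 13 were called higher in HCC4006 and 11 in ABC1, with a median log2 difference of 0.04, and of the 27 with at least 1 FPKM in each line 9 and 10. The calls became 6 or 8 for HCC4006 and 7 or 8 for ABC1 without 1 of the HCC4006 libraries. *EPHX3*, an epoxide hydrolase whose gene adjoins *NOTCH3* on chromosome 19, had 0.0399 and 0.0440 FPKM in ABC1 and 6.99 and 6.41 FPKM in HCC4006, the opposite order to *NOTCH3*.

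Among partner factors, *CEBPB* had 20.4 and 20.9 FPKM in ABC1 and 11.8 and 11.9 FPKM in HCC4006, a log2 difference of -0.75 (standard error 0.09, adjusted p = 0.00131 in limma after Benjamini-Hochberg correction), and *CEBPD* had 23.1 and 23.3 FPKM in ABC1 and 1.66 and 1.75 FPKM in HCC4006, so that *CEBPB* and *CEBPD* were each higher in ABC1. *FOSL2*, an AP-1 gene of the same family as *FOSL1*, had 57.1 and 53.5 FPKM in ABC1 and 40.1 and 38.2 FPKM in HCC4006, against the direction of *FOSL1*. *GATA3* had 52.4 and 68.1 FPKM in ABC1 and 22.5 and 15.7 FPKM in HCC4006, and *PBX3*, a homeobox cofactor, had 7.46 and 8.43 FPKM in ABC1 and 26.0 and 23.0 FPKM in HCC4006. In this list of C/EBP, AP-1 and partner factors, 22 genes were tested, with 11 called higher in HCC4006 and 10 in ABC1. Of the 18 with at least 1 FPKM in each line, 8 and 9 were called in these directions. The Hippo effectors went in opposite directions, with *YAP1* at 87.9 and 97.1 FPKM in ABC1 and 36.4 and 36.1 FPKM in HCC4006 and its paralogue *WWTR1*, which encodes TAZ, at 14.1 and 17.9 FPKM in ABC1 and 65.4 and 68.1 FPKM in HCC4006. *TEAD3*, a DNA-binding partner of both, had 99.8 and 118 FPKM in ABC1 and 9.63 and 9.22 FPKM in HCC4006. The list of 28 genes held these factors and upstream kinases beside YAP and TEAD targets, and all were tested. Of them, 11 were called higher in HCC4006 and 12 in ABC1, and of the 25 with at least 1 FPKM in each line 8 and 12.

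Antigen presentation and interferon-stimulated genes were mostly higher in HCC4006. *B2M*, the light chain of class I molecules, had 467 and 401 FPKM in ABC1 and 2049.6 and 2287 FPKM in HCC4006, a log2 difference of 2.32 (standard error 0.12). *HLA-B* had 10.0 and 10.5 FPKM in ABC1 and 159 and 157 FPKM in HCC4006, but *HLA-C* had 444 and 528 FPKM in ABC1 and 519 and 485 FPKM in HCC4006 and was not called, with the caution that alignment to a single reference misses divergent HLA alleles. *CD74*, the invariant chain of class II molecules, had 0 and 0.072 FPKM in ABC1 and 95.2 and 96.0 FPKM in HCC4006, while *HLA-DRA* and *CIITA* were under the minimum. *CD274*, which encodes PD-L1, had 0.824 and 2.23 FPKM in ABC1 and 31.3 and 38.2 FPKM in HCC4006. Of 23 genes of antigen presentation tested, 17 were called higher in HCC4006 and 4 in ABC1, and of the 18 with at least 1 FPKM in each line 12 and 4, while 2 or 1 were higher in ABC1 without 1 of the HCC4006 libraries. *ISG15*, a ubiquitin-like modifier, had 2.85 and 3.96 FPKM in ABC1 and 88.7 and 91.6 FPKM in HCC4006, and *IFIT3*, a binder of foreign RNA, had 1.43 and 0.778 FPKM in ABC1 and 31.1 and 32.8 FPKM in HCC4006. *MX1*, a GTPase against viruses, was at most 0.106 FPKM in ABC1 with 20.6 and 24.4 FPKM in HCC4006. The transcription factor *IRF3*, which induces interferon, was higher in ABC1 with 148 and 169 FPKM in ABC1 and 48.7 and 52.2 FPKM in HCC4006. Of 36 interferon-stimulated genes tested, 29 were called higher in HCC4006 and 4 in ABC1, with a median log2 difference of 1.88, and of the 23 with at least 1 FPKM in each line 17 and 3. Of 42 listed chemokines, cytokines and NF-kB feedback genes, 23 were tested, with 16 called higher in HCC4006 and 2 in ABC1, and of the 11 with at least 1 FPKM in each line 4 and 2. The 2 became 1 without replicate 1 of HCC4006. *LIF*, a cytokine of the interleukin-6 family, had 0.145 and 0 FPKM in ABC1 and 65.5 and 60.1 FPKM in HCC4006. *ICAM1*, an adhesion molecule for leukocytes, was called higher in ABC1 with 114 and 122 FPKM in ABC1 and 23.9 and 26.4 FPKM in HCC4006.

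The cell cycle inhibitors of chromosome 9 were not detected in HCC4006. *CDKN2A*, which encodes p16 and ARF (chromosome 9:21967751-21995300 of GRCh37), had 88.7 and 94.7 FPKM in ABC1 and was listed at 0 in both HCC4006 libraries, and the authors' base mean for HCC4006 was 0 too. *CDKN2B*, its neighbour, had 18.1 and 14.0 FPKM in ABC1 and at most 0.00845 FPKM in HCC4006. The third gene of this stretch, *MTAP* (chromosome 9:21802635-21937650 of GRCh37), gave conflicting values, since FPKM were higher in HCC4006 with 6.71 and 9.31 FPKM in ABC1 and 26.2 and 28.0 FPKM in HCC4006, but the authors' base mean was 249 for ABC1 and 1.96 for HCC4006. The level of *MTAP* in HCC4006 is therefore uncertain. *CDKN1A*, p21, had 13.1 and 15.9 FPKM in ABC1 and 76.4 and 84.2 FPKM in HCC4006. *MYCN* had 60.6 and 60.3 FPKM in ABC1 and was listed at 0 in both HCC4006 libraries. *RB1* had 9.67 and 10.5 FPKM in ABC1 and 7.72 and 8.96 FPKM in HCC4006 and was not called, while *CDK4*, which phosphorylates its product, had 184 and 190.1 FPKM in ABC1 and 78.8 and 82.2 FPKM in HCC4006. Of 35 genes tested in this list, 7 were called higher in HCC4006, 14 in ABC1 and 14 neither, and of the 31 with at least 1 FPKM in each line 7 and 10.

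Markers of cells that a pure epithelial line lacks were at or near 0 with few exceptions. Of 15 leukocyte markers, 13 were under the minimum, among them *PTPRC*, which encodes CD45, at no more than 0.0295 FPKM in any library. The highest value among these 13 was 2.45 FPKM, that of *CD79A*. *CD68*, with 2.54 and 1.55 FPKM in ABC1 and 102 and 91.2 FPKM in HCC4006, and *CSF1R*, with 0.111 and 0.390 FPKM in ABC1 and 5.69 and 6.06 FPKM in HCC4006, were called higher in HCC4006. Most of the summed level of the list, 2.46 to 3.19 FPKM in ABC1 and 101 to 110.5 FPKM in HCC4006, was that of *CD68*, for which the authors' base mean in HCC4006 was only 5.56. The 9 matched endothelial markers summed to 8.48 to 9.46 FPKM in ABC1 and 5.05 to 6.34 in HCC4006, and the 1 that was tested was called higher in ABC1. The 11 fibroblast and muscle markers summed to 5.29 to 7.01 and 13.5 to 15.6 FPKM. Of these, 2 were tested and both were called higher in HCC4006. *COL1A2*, under the minimum, was at 0 in ABC1 and at 0.928 and 1.48 FPKM in HCC4006. The part of such cells in the differences between the lines was not tested.

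The comparison was repeated in the DEM libraries of the lines, which share no library with the vehicle comparison. There, 63.6% of 13555 genes were called. Of the 8936 genes called with vehicle and tested in both, 8753 (98.0%) had the same sign with DEM, 7411 (82.9%) were called in the same direction and 16 in the opposite one. *NKX2-1* had a log2 difference of 4.79 with DEM beside 4.76 with vehicle, *SOX2* had -5.40 beside -5.29, *CD44* had 11.38 beside 12.03 and *NOTCH3* had -1.86 beside -2.20. The NRF2 targets, which DEM induces, kept their order in *NQO1*, with 1.28 beside 1.97, and in *GCLM*, with -0.43 beside -0.96. *TXNRD1*, not called with vehicle, had 0.52 with DEM and was called (adjusted p = 0.0149 in limma after Benjamini-Hochberg correction), but the change in its line difference was not called (adjusted p = 0.166 by the limma interaction term with Benjamini-Hochberg adjustment).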

How the data were processed

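RNA-seq was performed by the authors on poly(A) RNA with a strand-specific kit. The methods of the paper name TopHat and Cufflinks on hg19, whereas the submitters' processing notes list cutadapt 1.15, STAR 2.5.3a, Cuffnorm, HTSeq and DESeq2 with GRCh37.p13, and which of these made the values is not settled by these sources. The authors deposited FPKM per gene and library, which are normalised to length and depth and carry no read counts. Their comparison tables of vehicle and DEM hold a fold change, its error, a statistic and p-values, which were not used, and a base mean, a signal scaled to a common depth and pooled over a line's vehicle and DEM libraries, which the authors deposited and which served to check directions and to choose the genes with the largest differences. The base means summed to 13786927 for ABC1 and 13957312 for HCC4006. The deposited FPKM of the vehicle libraries summed to 628775 and 697394 in ABC1 and 697441 and 662825 in HCC4006. No counting interval is given, since FPKM hold no counts of reads.

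With limma 3.58.1 in R 4.3.3, log2(FPKM + 1) of the vehicle libraries was fitted with a trend of the variance on the mean for genes whose average reached 1 FPKM, with Benjamini-Hochberg adjustment over all genes and a threshold of 0.05. The pseudocount of 1 makes the log2 difference of a low gene smaller than its ratio. An exact two-sided permutation test of 2 libraries against 2 cannot give a p under 0.333. The script was tested on simulated data with 200 changed genes, far fewer than the 9305 called here. That run therefore does not test the calls at the share of changed genes seen in these data. Gene symbols were found for 55534 of 57815 identifiers, with positions of GENCODE on GRCh37. The 37 gene lists (1079 genes) and the genes described were chosen with earlier results of these data known. Of the listed genes, 12 were not matched to an identifier, and a few others are not reported here. The genes named were the 12 with the largest called difference in each direction among protein-coding genes with non-overlapping libraries, an exon length of at least 500 bases and a base mean of at least 10. To these came up to 6 members of each list with the largest difference, the first 5 of each list, genes the study names, and their partners, and a few more list members were chosen after their values were seen. The alternatives tried were pseudocounts of 0.1 and 0.5, other minimums, 2 other scalings, no trend, all 8 libraries in the fit, each library left out and the replicate number as a block. Promoters of *EPCAM*, *ESRP1* and *CDH1* were not used here.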

Additional observations from a re-analysis of the deposited data

Results flagged for a closer look

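For 11 of the genes named here, the difference between the lines was not the same with DEM as with vehicle, by the limma interaction term with Benjamini-Hochberg adjustment, which called 87 of 13682 genes (2068 had an unadjusted p under 0.05). The change is given as the line difference with DEM minus that with vehicle, on the log2 scale. The line difference of *SLC34A2* was 6.07 with DEM beside 7.18 with vehicle, a change of -1.11. *CCL2* changed by -1.52, from 9.40 to 7.88, *SLCO2A1* by -1.58, from 7.57 to 5.99, *TGFB2* by -1.23, from 5.59 to 4.37, and *CDKN1A* by -1.19, from 2.40 to 1.21, so that these genes were higher in HCC4006 under both conditions and less so with DEM. Among genes higher in ABC1, *KRT4* changed by 1.55, from -4.58 to -3.03, *MYCN* by 1.20, from -5.94 to -4.74, and *CTH* by 0.92, from -2.04 to -1.12, all towards a smaller difference. *PRSS35* changed by -0.95, from -6.84 to -7.80, towards a larger one. The NRF2 target *PIR* changed by 1.09, from -1.29 to -0.20, and was not called between the lines with DEM. *AKR1C1*, which shares sequence with its relatives, changed by -1.26, from 0.23 to -1.03, and was called higher in ABC1 with DEM only. The adjusted p of these 11 interaction terms lay between 0.0201 and 0.0496 in limma after Benjamini-Hochberg correction.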

How the results depend on the processing

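The counts of 5121 genes higher in HCC4006 and 4184 higher in ABC1 stayed within 1.5 times under every alternative that kept all 4 vehicle libraries, from 3721 to 5618 and from 3187 to 4562. They fell further without a library of HCC4006: over the 4 settings that leave out 1 library, the genes higher in HCC4006 ranged from 3155 to 5111 and the genes higher in ABC1 from 2321 to 4027. By construction such a fit has fewer samples and takes the spread of the lone library from the other line. Between the lines, the replicate numbers showed no pairing of the vehicle libraries. The difference between replicates 0 and 1 correlated between the lines with r = 0.0356 across 13747 genes. With the replicate number as a block the counts were 5164 and 4230. A pairing of vehicle and DEM libraries of the same number within a line was not examined, and the interaction fit took all 8 libraries as separate. Of the 74 counts of called genes per list and direction, 24 moved by over 1.5 times without replicate 0 of HCC4006 and 24 without its replicate 1, against 4 and 3 without replicates 0 and 1 of ABC1, 15 each without a minimum and with a minimum of 5 FPKM, and at most 2 under each other alternative.

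Of 228 named genes tested, 187 kept their direction and their side of the threshold in every refit, and 218 did so in those with all 4 vehicle libraries. *ACTB*, *AGR2*, *BACH1*, *CDH3*, *CT83*, *CYP1A1*, *ERBB2*, *FOSL2*, *FTH1*, *FTL*, *GCLC*, *IDH1*, *KRT19*, *MET*, *SLC7A11*, *TFRC* and *TKT* lost their call without either library of HCC4006, *EPCAM*, *HBEGF*, *HES4* and *LAMA3* only without its replicate 0, and *IGF1R*, *KRT8*, *PRAME* and *TYRO3* only without its replicate 1, with an adjusted p between 0.0502 (*IDH1*) and 0.336 (*ACTB*) in limma after Benjamini-Hochberg correction. Calls were gained by *EGR1* without replicate 0 of ABC1, by *CDH1*, *EGFR*, *ITGB1*, *MYC*, *NFE2L2*, *PGD*, *SNAI1* and *TXN* without its replicate 1, and by *AKR1C1* without replicate 1 of HCC4006. With the block, *CDH1* and *MYC* were called and *SLC7A11* was not, and no other named gene changed its call. Without a minimum, *ACTB*, *BACH1*, *FTH1* and *FTL* were not called, and *BACH1* was lost under both scalings.

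The sign changed only for genes that were not called, apart from *MTAP*. Over the fits without 1 library, the log2 difference ranged from -0.245 to 0.098 for *EGFR*, from -0.141 to 0.237 for *GAPDH*, from -0.073 to 0.176 for *HLA-C*, from -0.064 to 0.379 for *NOTCH2*, from -0.014 to 0.388 for *PGD*, from -0.013 to 0.254 for *PRDX3*, from -0.120 to 0.250 for *TXN* and from -0.201 to 0.084 for *TXNRD1*. Scaling by the median of ratios gave -0.006 for *GAPDH* and -0.002 for *HLA-C*, and equal sums over nuclear genes gave -0.012 and -0.009. The log2 ratios of the authors' base means, a check chosen after seeing the data, had the other sign for *AKR1C1* (-0.854), *EGFR* (0.206), *GAPDH* (-0.025), *HLA-C* (-0.027), *TXNRD1* (0.381) and *MTAP* (-6.415), and for 208 (2.24%) of all called genes. The base means pool the vehicle and DEM libraries of a line, so their ratio is not that of the vehicle libraries alone. The cause of the other signs was not tested. The scalings moved the median of all genes from 0.07 to 0.02 on the log2 scale.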

Other observations

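Markers of other organs mostly had a mean under 1 FPKM over the 4 vehicle libraries. Of 35 gastrointestinal and hepatic markers, 28 were under the minimum and only 1 had at least 1 FPKM in each line, and those tested were called higher in HCC4006 with the exception of *AGR2*, a disulfide isomerase of secretory cells, which had 689 and 672 FPKM in ABC1 and 436 and 433 FPKM in HCC4006, a call that was lost without either HCC4006 library (adjusted p = 0.0593 and 0.0601 in limma after Benjamini-Hochberg correction). *SERPINA1*, alpha-1-antitrypsin, was listed at 0 in both ABC1 libraries and had 94.5 and 85.8 FPKM in HCC4006, and *SPDEF*, an ETS factor of goblet cells, was at 0 in ABC1 with 77.4 and 67.4 FPKM in HCC4006. *SPINK1*, a trypsin inhibitor, showed the same order with 29.7 and 33.8 FPKM in HCC4006. Of 23 neuroendocrine and neural markers, 4 were tested and all 4 were called higher in HCC4006, although only 1 had at least 1 FPKM in each line. Of these, *UCHL1*, a ubiquitin hydrolase, had 0.190 and 0.209 FPKM in ABC1 and 22.0 and 22.3 FPKM in HCC4006, while the factor *NEUROD1* was under the minimum. Among 36 cancer-testis antigens, 3 were tested. *PRAME* had 3.75 and 3.56 FPKM in ABC1 and 6.29 and 6.94 FPKM in HCC4006, *CT83* had 6.39 and 5.54 FPKM in ABC1 and 9.27 and 9.29 FPKM in HCC4006, calls that were lost without 1 HCC4006 library for *PRAME* and without either for *CT83*, and *DDX53* had 5.52 and 6.52 FPKM in ABC1 and was listed at 0 in both HCC4006 libraries.

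Drug exporters differed in single members. *ABCC5*, an exporter of cyclic nucleotides and of nucleoside analogues, had 165 and 156 FPKM in ABC1 and 6.99 and 7.74 FPKM in HCC4006, a log2 difference of -4.27 (standard error 0.10), and *ABCC1*, an exporter of glutathione conjugates, had 9.67 and 8.07 FPKM in ABC1 and 31.5 and 31.2 FPKM in HCC4006. *ABCG2*, the breast cancer resistance protein, had 0.510 and 0.585 FPKM in ABC1 and 2.72 and 3.81 FPKM in HCC4006, whereas *ABCB1*, P-glycoprotein, was under the minimum. Of 12 exporters tested, 5 were called higher in HCC4006 and 1 in ABC1, or 2 in ABC1 without its replicate 0, and of the 8 with at least 1 FPKM in each line 2 and 1.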
